A study of Caenorhabditis elegans with 3 samples.

Results

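Small nucleolar RNA (snoRNA) and small nuclear RNA (snRNA) genes were the sites examined in peak lists from chromatin precipitated with tagged BED-3 from Caenorhabditis elegans embryos. A pooled peak was counted when its summit lay at most 500 bp from a nuclear snoRNA or snRNA gene of the Ensembl annotation and more than 200 bp from any tRNA gene. This rule kept 302 of the 30000 pooled peaks, and 29980 of all pooled peaks were on nuclear chromosomes. The 302 peaks were nearest to 232 genes, out of 346 snoRNA genes and 129 snRNA genes. The tRNA condition removed 3 peaks, at sls-2.9, C16D9.10 and M163.14.

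All samples came from strain OP651, which carries unc-119(tm4063) and the transgene wgIs651 with bed-3::TY1::EGFP::3xFLAG and unc-119(+). BED-3 is a BED-type zinc finger protein. The single group held 3 biological replicates, numbered 1, 3 and 4, of mixed-stage embryos released by bleaching, with an age of 4 hours and both sexes pooled. The tagged protein was precipitated with an antibody to GFP from sonicated chromatin of 200 to 800 bp. Tagged BED-3 is made from a transgene, and the labels do not say which cells make it. The control experiment that the labels name and an untagged precipitation were not analysed here, so a peak is not shown to be a site of BED-3 binding. The lists of replicates 1, 3 and 4 had 26338, 29455 and 30000 entries. The optimal list is the authors' reproducible subset, and 570 of its peaks were nuclear. Read depth was not analysed here, so precision rests on the number of replicates and peaks.

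snoRNAs guide the chemical modification of ribosomal RNA by base pairing, and box C/D and box H/ACA families carry out different reactions. The U snRNAs form the core of the spliceosome. Spliced leader RNAs donate their first bases to the 5′ ends of many worm mRNAs by trans-splicing, with SL2 used mostly at downstream genes of operons. Many snoRNA genes lie in introns of coding genes and can be released from the host transcript, whereas others carry promoters of their own. RNA polymerase III reads tRNA genes from internal A and B boxes, and comparable boxes have been described upstream of snoRNA genes in C. elegans. U snRNA and spliced leader genes use a proximal sequence element bound by the SNAPc complex instead.

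Upstream sequences of 6 of the highest snoRNA peaks are shown because the summits lie on them, as the 120 bases that end just before the annotated 5′ end. They were read on the gene's strand from the RefSeq genome of build WBcel235, the assembly also known as ce11. W03C9.9 (chrII:11960778-11960897, plus strand) and T06C12.16 (chrV:15873927-15874046, minus strand) lay outside coding genes. T03F7.8 (chrV:11314138-11314257, plus strand) lay antisense to cutl-18. C10C6.8 (chrIV:11474192-11474311, minus strand) and C27H6.5 (chrV:9970272-9970391, minus strand) lay in introns of catp-8 and unc-41. ZK994.7 (chrV:8500459-8500578, plus strand) lay in an intron of pxn-1 and held no box pair. The last line is a whole tRNA gene, F15G9.t1 (chrX:9743589-9743660, plus strand), shown because its strong peak has the summit inside a gene with both boxes. Capitals mark the A box and, after it, the B box. In T06C12.16 the B box starts 7 bases before the 5′ end and runs on into the gene, so its last letters are not printed.
W03C9.9: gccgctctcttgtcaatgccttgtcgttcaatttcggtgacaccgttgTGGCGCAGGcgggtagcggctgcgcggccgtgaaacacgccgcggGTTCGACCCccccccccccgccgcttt
T03F7.8: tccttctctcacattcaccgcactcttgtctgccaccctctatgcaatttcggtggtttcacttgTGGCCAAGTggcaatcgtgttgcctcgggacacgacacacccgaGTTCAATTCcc
T06C12.16: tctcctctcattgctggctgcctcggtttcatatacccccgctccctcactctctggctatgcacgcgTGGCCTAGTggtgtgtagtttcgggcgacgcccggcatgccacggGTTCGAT
C10C6.8: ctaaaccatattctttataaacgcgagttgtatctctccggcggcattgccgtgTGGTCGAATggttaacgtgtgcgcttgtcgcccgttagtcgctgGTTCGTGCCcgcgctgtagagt
C27H6.5: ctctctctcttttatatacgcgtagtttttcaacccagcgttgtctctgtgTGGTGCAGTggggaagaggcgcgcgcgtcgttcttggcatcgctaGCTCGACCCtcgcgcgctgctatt
ZK994.7: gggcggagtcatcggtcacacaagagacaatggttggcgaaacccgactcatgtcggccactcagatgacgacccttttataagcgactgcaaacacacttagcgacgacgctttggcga
F15G9.t1: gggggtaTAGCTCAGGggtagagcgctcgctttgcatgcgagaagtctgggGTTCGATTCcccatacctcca

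A part of the peaks at snoRNA and snRNA genes stood high in every list, and 208 of the 302 were neither optimal nor among the 1000 highest of any replicate. Of the 302 peaks, 69 were on the optimal list (22.8%), against 1.90% of all nuclear pooled peaks. The 486 pooled peaks within 200 bp of a tRNA gene stood higher, with 39.7% on the optimal list. In all, 50 of the 302 peaks (16.6%) matched a peak among the 1000 highest of every replicate, against 1.09% of all nuclear pooled peaks. Of the peaks near tRNA genes 26.1% did. Matching meant summits at most 100 bp apart. Among the 1000 highest peaks of single lists were 70 of the 302 in replicate 1, 66 in replicate 3 and 76 in replicate 4. The median pooled signal, in the unit of the authors' caller, was 50.6 at the 302 peaks and 39.2 at the other 29678 nuclear peaks. At the peaks near tRNA genes it was 91.2. Most of the 302 were therefore modest, and the optimal ones ran from 127 to 1360. Replicates 3 and 4 gave lists from which the optimal list was derived, and all 3 supplied reads to the pooled list, so these counts are not independent of one another.

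The strongest peak lay over C51F7.4, a snoRNA gene overlapping frm-7, with a pooled signal of 1360. It took ranks 6, 6 and 7 in replicates 1, 3 and 4, with signals of 379, 292 and 686. Its summit was 37 bp inside the gene and upstream of the next snoRNA gene, C51F7.3, which holds a box pair. W03C9.9, with a pooled signal of 1288, ranked 8, 14 and 6 in the same replicates, with signals of 324, 237 and 730, and ZK265.10, with 1052, ranked 11, 20 and 13. Both are free-standing, meaning outside every coding gene, and both summits lay 66 bp upstream of the gene. T03F7.8 (pooled signal 992) ranked 15, 23 and 12, and T06C12.16 (991) ranked 12, 19 and 14. ZK994.7 (921), inside the peroxidasin gene pxn-1, ranked 18, 22 and 15. Raw signals differed between lists, and replicate 4 gave the highest at each of these genes, so ranks were used across replicates.

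The next peaks lay at T02E1.9 (antisense to spe-12), C10C6.8, Y43F8C.22, D1046.6, H09I01.2, C04G6.12 (antisense to the kinase gene mpk-2), F32E10.10, C27H5.9, B0334.12, C41C4.11, F55A11.10, ZK484.9, C27H6.5 and F38E11.14. Their pooled signals ran down from 755 to 510. The poorest rank any of these 20 highest peaks took in any replicate was 121, for F55A11.10 in replicate 3, which took ranks 56 and 37 in replicates 1 and 4. Across the 69 optimal peaks, Spearman's rho of rank was 0.89 between replicates 1 and 3 (n = 60 matched), 0.92 between 1 and 4 (n = 64) and 0.87 between 3 and 4 (n = 63). At the other optimal nuclear peaks it was 0.62 (n = 428), 0.66 (n = 462) and 0.66 (n = 444). These values describe peaks that share reads with the pooled list, and all lists share a further input file.

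**Figure D1:**
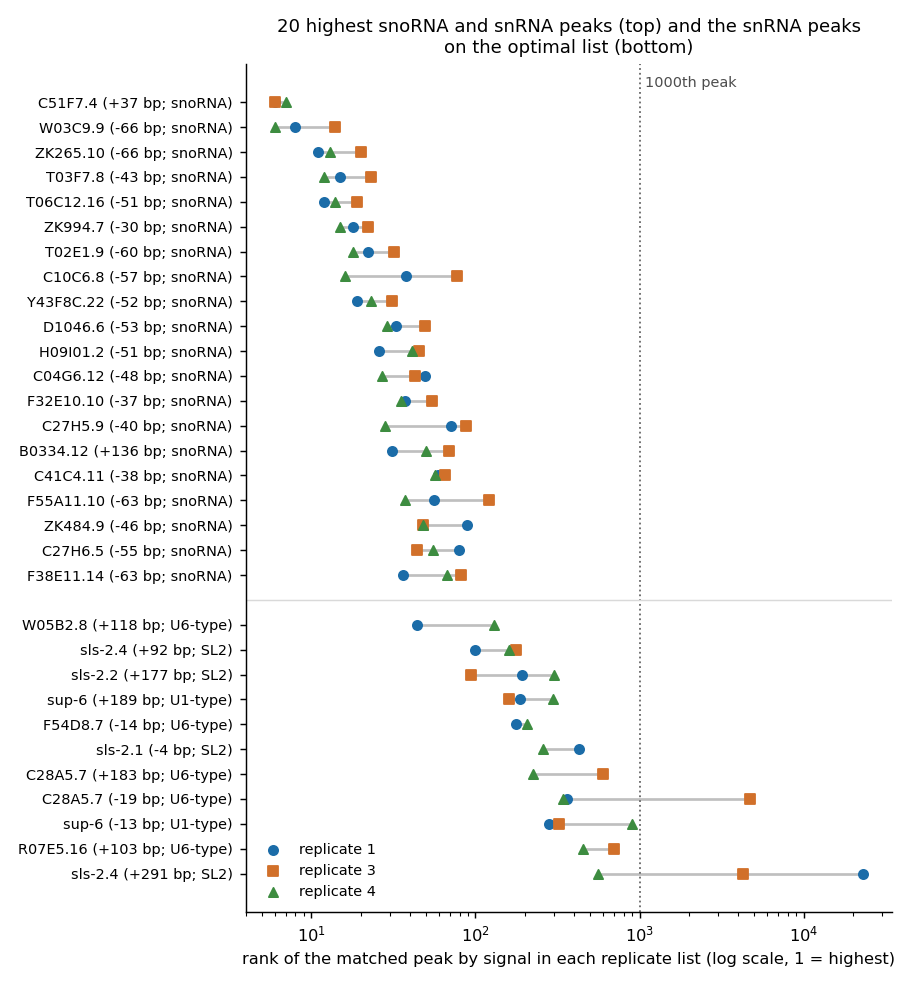
Rank by signal of the matched peak in each replicate list (log axis, 1 is highest) for the 20 highest snoRNA and snRNA peaks and, below, the 11 snRNA peaks of the optimal list, with the summit position from the annotated 5′ end in the label. All 20 upper peaks sit left of rank 122 in each replicate, whereas several snRNA peaks lack a match or fall beyond rank 1000 in 1 or more replicates.

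Optimal peaks divided into 58 at snoRNA genes and 11 at snRNA genes. Of the snoRNA ones 46 were among the 1000 highest of every replicate, and of the snRNA ones 4 were. The widest spread was at the second summit of sls-2.4, 291 bp downstream of the 5′ end, with ranks of 22967, 4292 and 558 in replicates 1, 3 and 4. W06H8.17 ranked 2068, 7269 and 318, and Y53F4B.47 ranked 8039, 586 and 421. Second summits at F55A11.10 (6133, 600 and 357) and T02E1.9 (no match in replicate 1, then 7036 and 383) followed. All 5 had pooled signals between 127 and 154, with pooled ranks from 423 to 558, and replicate 4 gave the best rank at each.

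Summits at snoRNA genes gathered just upstream of the gene. Among the 58 optimal snoRNA peaks the median summit was 43.5 bp upstream of the annotated 5′ end, with quartiles at 54.5 and 27.5 bp upstream. Of these, 47 lay between 120 bp upstream and the 5′ end (81.0%). Of the peaks neither optimal nor among the 1000 highest of any replicate, snoRNA and snRNA genes together, 39 of 208 lay in that stretch (18.8%). Over peaks of all strengths the share was 36.1% of 241 at snoRNA genes and 16.4% of 61 at snRNA genes. Free-standing snoRNA genes had a median optimal summit 44 bp upstream (quartiles at positions -54.5 and -37.25, n = 22), and intron-hosted ones 45 bp upstream (quartiles at -56.5 and -24.75, n = 22). Over all peaks of free-standing genes, snRNA genes and weak peaks included, the median was 18 bp upstream. Antisense snoRNA genes, which overlap coding genes on the other strand, had 36.5 bp (n = 12). The medians of the 3 classes lay within the quartiles of the free-standing and intron-hosted classes, except the antisense one, just outside those of free-standing genes.

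**Figure D2:**
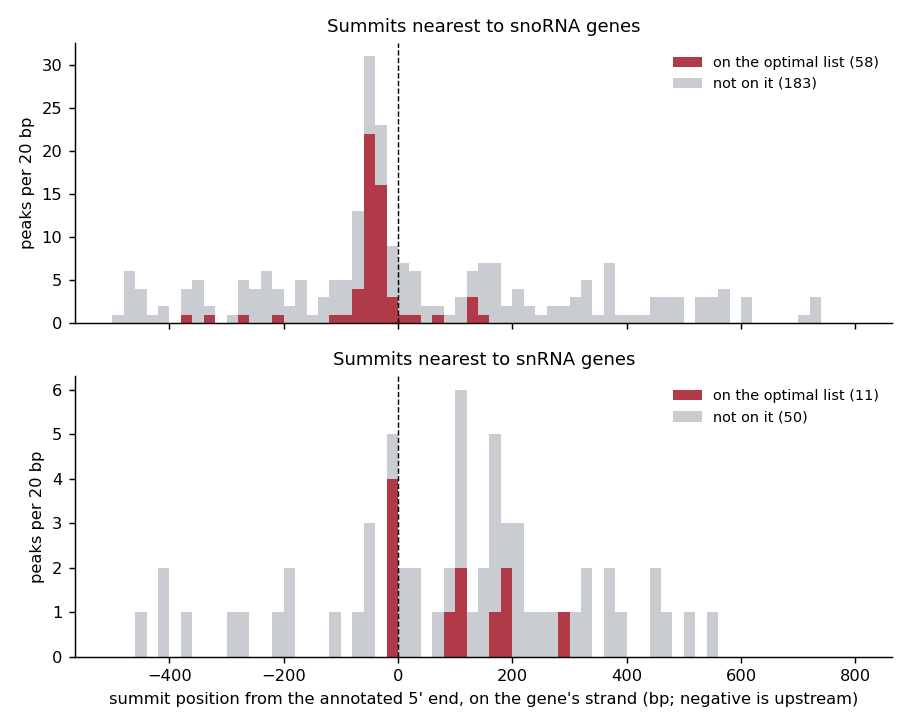
Number of peaks per 20 bp of summit position from the annotated 5′ end on the gene's strand, for snoRNA genes above and snRNA genes below, split into peaks on the optimal list and the rest. The 58 optimal snoRNA summits pile up just upstream of the gene, with 47 of them in the 120 bp before the gene. The 11 optimal snRNA summits are more spread, with a median 103 bp downstream of the 5′ end and quartiles at positions -8.5 and 180.

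A pair of boxes of the tRNA kind was found at the gene of 36 of the 58 optimal snoRNA peaks. The other 22 had no pair, ZK265.10 among them. The letters searched were TGGCNNAGT for the A box with up to 2 mismatches and GTTCGANNC for the B box with up to 1 mismatch, on the gene's strand, with 20 to 90 bp between their starts. The window ran from 120 bp upstream to 20 bp into the gene. Letters and mismatches were taken as the widest gap between tRNA and coding genes over 30 settings, after the snoRNA sequences had been seen. The pair was present at 99.2% of 612 nuclear tRNA genes, searched from 20 bp upstream to 120 bp downstream of the 5′ end, and at 2.54% of 19973 coding genes. It was present at 33 of the 47 snoRNA genes with an optimal summit in the upstream stretch (70.2%). Of snoRNA genes with only weaker peaks 14 of 138 held it (10.1%), and of those with no peak 11 of 150 (7.33%). The A box alone was common everywhere, at 91.5% of the 47 genes, 72.7% of the 150 without a peak and 61.4% of coding genes. The B box alone was at 80.9%, 15.3% and 9.6% of the same sets. On the opposite strand the pair occurred at 4 of the 58 snoRNA genes with an optimal peak. With at most 1 mismatch in each box, 27 of the 47 genes (57.4%) and 0.32% of coding genes held a pair. The 8-mer TGGCGCAG, which falls within the A box, was picked for its large excess in these same 47 windows, so that excess is no separate support. It was in 11 of the 47 windows, 1 of the 150 windows of snoRNA genes without a peak and 9 of the 19973 coding windows. The B box core GTTCGA was within 50 bp of 18 of the 69 optimal summits (26.1%, both strands) and of 3.78% of the other nuclear summits.

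Box spacing at snoRNA genes had the same median as at tRNA genes. The A box began a median of 44 bp before the B box at the 33 snoRNA genes (25 to 52 bp) and also 44 bp before it at tRNA genes with optimal peaks (36 to 57 bp). At the snoRNA genes the A box began a median of 58 bp and the B box 14 bp upstream of the annotated 5′ end. Summits lay a median of 12 bp after the start of the A box and 31 bp before the start of the B box, and 31 of 33 fell between the start of the A box and the end of the B box. At tRNA genes the medians were 14 bp and 32 bp over 191 optimal peaks, and 124 of them fell in the same interval (64.9%). The snoRNA summits had been limited to the 120 bp upstream, where the boxes were searched. The tRNA summits were all those within 200 bp of a tRNA gene, so the 2 shares are not a like comparison. In F15G9.t1, printed above, the summit was 12 bp into the gene, with ranks of 34, 27 and 44 in replicates 1, 3 and 4.

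**Figure D3:**
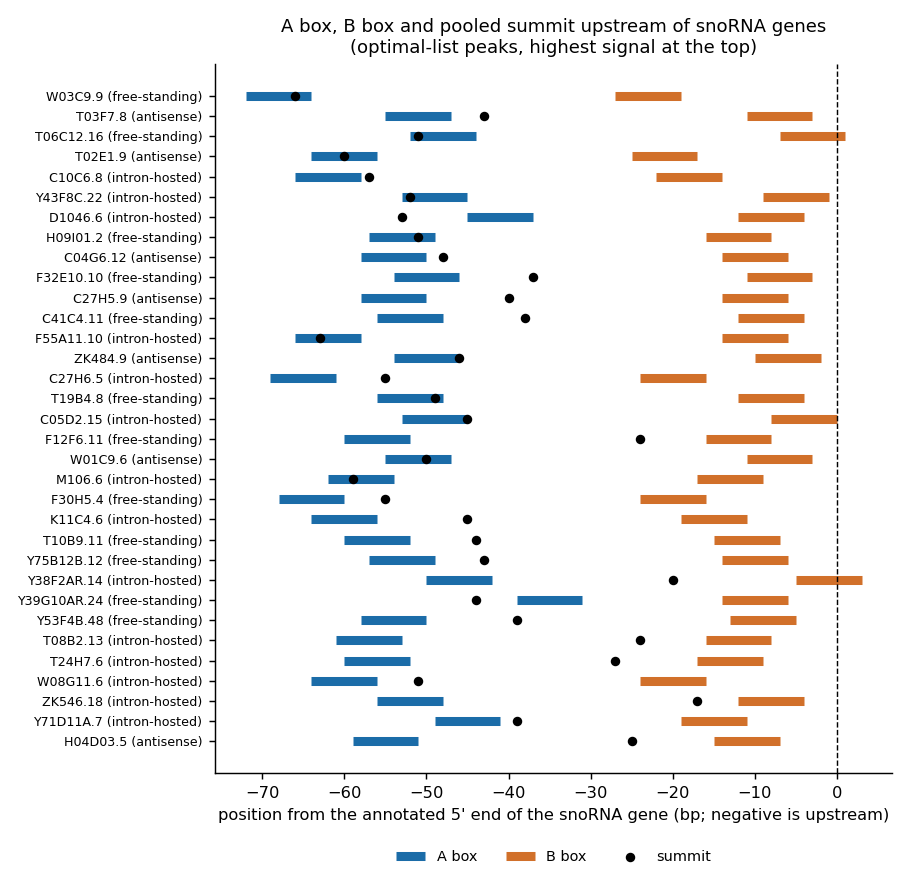
Position of the A box, the B box and the pooled summit, in bp from the annotated 5′ end, for the 33 snoRNA genes with an optimal summit in the 120 bp upstream and a box pair, ordered by signal. In 31 of the 33 genes the summit lies between the start of the A box and the end of the B box, in free-standing, intron-hosted and antisense genes alike.

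High peaks were more frequent at snoRNA genes with a box pair than at those without. Of 60 snoRNA genes with a pair, 61.7% had a peak among the 1000 highest of replicate 1, 56.7% in replicate 3 and 61.7% in replicate 4, a mean of 60% ± 2.89 (SD, n = 3). Of the 286 without a pair the mean was 8.51% ± 0.404 (SD, n = 3), so genes with a pair had the higher share in 3 of 3 replicates. For comparison, 1.92% of 45803 other nuclear genes had such a peak in replicate 1, 1.82% in replicate 3 and 2.19% in replicate 4. On the optimal list were 35 of the 60 genes with a pair (58.3%) and 23 of the 286 without (8.04%), against 1.27% of other nuclear genes. Among those 23, C51F7.4 and C27H5.10 were counted through a peak shared with a neighbouring gene that holds a pair. Since the boxes were chosen after the sequences were seen, the difference between genes with and without a pair is described and not tested. A run of TTTT, the polymerase III stop signal, within 20 bp after the gene was found at 33 of the 35 genes with both a pair and an optimal peak (94.3%). It was found at 15 of the 25 genes with a pair and no optimal peak (60%), at 10 of the 23 with an optimal peak and no pair (43.5%), and at 87 of the 263 with neither (33.1%). The pair without an optimal peak occurred for example at F11A10.9 in rbm-34, which had a pooled signal of 122 and ranks of 867 and 477 in replicates 1 and 4, without a match in replicate 3. At 11 of these 25 genes, K10D2.10 and Y59E1B.14 among them, no peak was counted.

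Peaks at free-standing genes were compared with peaks at genes inside introns of coding genes on the same strand. A peak among the 1000 highest was present at 14.5% of 186 free-standing genes in replicate 1, 15.1% in replicate 3 and 15.6% in replicate 4, a mean of 15.1% ± 0.538 (SD, n = 3). At 185 intron-hosted genes it was present at 18.9%, 12.4% and 15.7%, a mean of 15.7% ± 3.24 (SD, n = 3). The difference was -4.40 percentage points in replicate 1, 2.62 in replicate 3 and -0.0843 in replicate 4, a mean of -0.622 ± 3.54 (SD). An exact sign-flip permutation test over the 3 replicates gave a two-sided p of 0.75, or 0.75 after Benjamini-Hochberg adjustment over the 3 class comparisons. The smallest p that 3 replicates allow is 0.25, so no comparison here can pass a threshold of 0.05. The size and sign of the difference moved with the settings. It was -4.77 points (15.8% against 20.5%) with a limit of 1000 bp and -3.95 points (11.7% against 15.7%) for free-standing genes with no coding 5′ end within 1000 bp, and without replicate 1 it turned to 1.27 points. On the optimal list were 27 of the 186 free-standing genes and 26 of the 185 intron-hosted ones. The median pooled rank was 7253.5 at free-standing and 6956.5 at intron-hosted peaks.

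In each of the 3 snoRNA classes that held box pairs, the share with high peaks was larger at genes with a pair. Among free-standing snoRNA genes, a peak among the 1000 highest was present at 61.7% ± 2.89 of 20 genes with a pair and 9.62% ± 0.962 of 104 without. Among intron-hosted snoRNA genes the shares were 59.8% ± 5.27 of 29 with a pair and 5.79% ± 2.48 of 121 without. Antisense snoRNA genes had 57.6% ± 5.25 of 11 with a pair and 18.5% ± 3.70 of 27 without (SD, n = 3 throughout). The pair was present at 20 of 124 free-standing and 29 of 150 intron-hosted snoRNA genes. The 5 intron-hosted genes with the highest peaks were C51F7.3 in frm-7, ZK994.7 in pxn-1, C10C6.8 in the cation ATPase gene catp-8, Y43F8C.22 in Y43F8C.7 and D1046.6 in the mRNA cleavage factor gene cfim-2. C51F7.3 follows C51F7.4 on the same strand, and the strongest peak, with its summit inside C51F7.4, was counted for both. The boxes of C51F7.3 start at positions -99 and -44 from its own 5′ end, and this summit lay between those starts. C10C6.8 took ranks 38, 77 and 16 in replicates 1, 3 and 4, Y43F8C.22 ranked 19, 31 and 23, and D1046.6 ranked 33, 49 and 29. The summits at these genes other than C51F7.3 were 30 to 57 bp upstream of the snoRNA gene. Other hosts of optimal peaks were the condensin gene mix-1, the spectrin gene unc-70, the mediator gene mdt-4 and the phenylalanyl-tRNA synthetase gene fars-1.

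**Figure D4:**
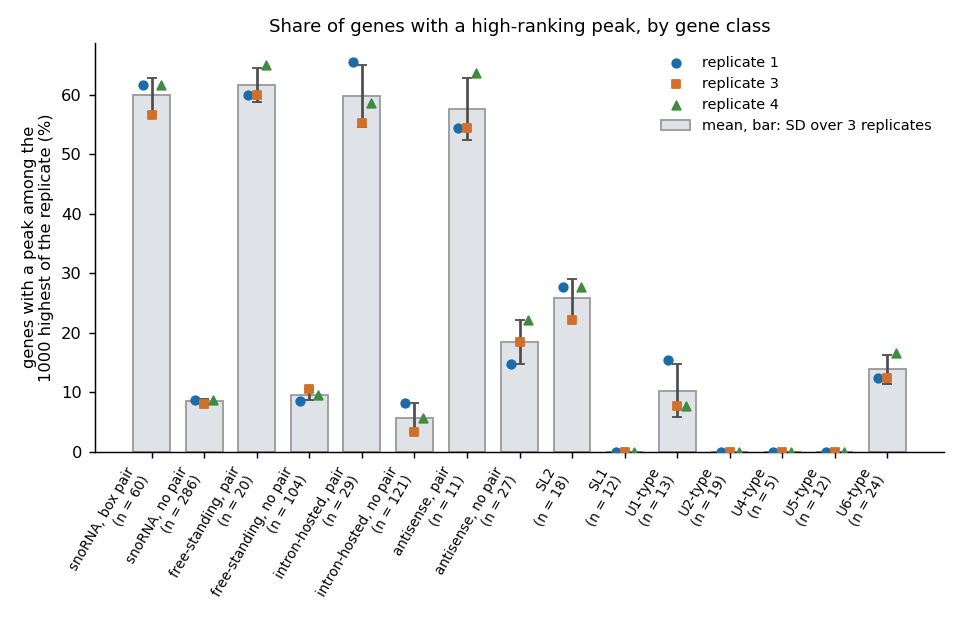
Share of genes in each class with a peak among the 1000 highest of a replicate list; symbols are the 3 replicates, columns their mean and bars the SD. Genes with a box pair stand near 60% in free-standing, intron-hosted and antisense snoRNA classes, snoRNA genes without one have means of 18.5% or less, and SL1, U2-type, U4-type and U5-type genes are at 0 in every replicate.

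Coding promoters were near some of these summits, so distances were measured. A coding 5′ end lay within 1000 bp of 33 of the 69 optimal peaks (47.8%) and of 218 of the 308 other optimal peaks away from tRNA genes (70.8%). The median distance was 1089 bp at the snoRNA and snRNA peaks and 290.5 bp at the other peaks. ZK994.7 was 5660 bp, F30H5.4 9468 bp and Y23H5B.10 16230 bp from the nearest coding 5′ end. Annotated genes of the classes ncRNA, lincRNA or antisense RNA, of any length, lay under 13 of the 69 optimal summits. The same share at other peaks is not given here. tRNA pseudogenes lay under 2, D1046.t1 at D1046.6 and T08B2.t1 at T08B2.13. Both of these snoRNA genes were counted with a box pair, and whether the boxes belong to the pseudogenes was not tested. Mean GC content was 51.8% ± 8.56 (SD) within 50 bp of the 69 optimal summits and 37.9% ± 9.85 around the other 29678 nuclear peaks, most of them weaker. It was 44.1% ± 10.9 over all 302 peaks and 46.1% ± 9.39 at peaks within 200 bp of a tRNA gene. The letters GCGCGC lay within 50 bp of 14.5% of the 69 optimal summits and 15.6% of the 308 other optimal ones. The part of GC content in the ranks was not tested.

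snoRNA genes were compared with snRNA genes. A peak among the 1000 highest was present at 17.4% ± 0.834 of 346 snoRNA genes and 8.01% ± 1.61 of 129 snRNA genes (SD, n = 3). The difference was 8.62 points in replicate 1, 10.3 in replicate 3 and 9.39 in replicate 4, higher in 3 of 3. The exact sign-flip permutation p was 0.25, the smallest possible, and 0.375 adjusted. Sequence uniqueness differed between the classes as well. Every 36-base stretch of the gene occurred once in the genome at 304 of the 346 snoRNA genes but at 26 of the 129 snRNA genes. The labels do not say how reads that match several sites were placed. Among genes made of unique stretches alone, the difference was 13.2 ± 3.4 points (SD, n = 3), with shares of 18.3% for snoRNA genes and 5.13% for snRNA genes. The 26 unique snRNA genes held 7 SL2 genes, 1 U snRNA gene and no SL1 gene. They therefore do not stand for the snRNA class, and the part of repeated sequence in the difference was not tested.

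Families of U snRNA genes were named here from sequence, by single-linkage grouping at under 30% edit distance and a short run of letters. SL1 and SL2 genes were named with the help of gene symbols. The U1-type gene sup-6 (chrII:12944803-12944967, minus strand), which lies in F58G1.7, is printed because it had the highest U1-type peak, with the 5′ splice site pairing run in capitals.
sup-6: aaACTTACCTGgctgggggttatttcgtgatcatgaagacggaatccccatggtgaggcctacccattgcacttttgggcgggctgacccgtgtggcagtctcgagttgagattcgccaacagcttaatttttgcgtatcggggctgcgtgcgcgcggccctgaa

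Spliced leader genes had a higher share with high peaks than U snRNA genes in 3 of 3 replicates, and all such spliced leader genes were SL2 genes. A peak among the 1000 highest was present at 15.6% ± 1.92 of 30 spliced leader genes and 6.39% ± 0.791 of 73 U snRNA genes (SD, n = 3). The difference was 9.82 points in replicate 1, 7.85 in replicate 3 and 9.82 in replicate 4, with an exact sign-flip permutation p of 0.25, the smallest possible, and 0.375 adjusted. Counting only summits from 120 bp upstream to the 5′ end, a choice made after seeing the data, turned the difference to -0.32 points. Matching summits within 50 bp lowered it to 3.87 ± 4.64 points (SD, n = 3), with shares of 8.89% and 5.02%. The 18 SL2 genes had a share of 25.9% ± 3.21 (SD, n = 3), and 10 of them had a peak within 500 bp. None of the 12 SL1 genes had one, which allows a share of up to 25% by counting error if genes are taken as independent. SL1 genes are copies of a repeated sequence clustered on chromosome V, so they are not independent. No SL1 gene consisted of unique 36-base stretches, against 7 of the 18 SL2 genes. An A and B box pair occurred upstream of 10 of these 12 repeated SL1 genes.

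Among SL2 genes, sls-2.4 had the highest peak, with a pooled signal of 301 and ranks of 100, 177 and 159 in replicates 1, 3 and 4. A single peak with a signal of 247 lay between sls-2.2 and sls-2.3 and ranked 193, 94 and 300. It counted for both genes. The summit 4 bp upstream of sls-2.1 (signal 209) took ranks 430 and 259 in replicates 1 and 4, without a match in replicate 3, where the other summit of the gene (signal 73.2) ranked 187. sls-2.8, off the optimal list, had a signal of 99.6 and ranks of 1804 and 916 in replicates 3 and 4, and its second summit (signal 42.1) ranked 612 in replicate 1. A peak of signal 257 at sls-2.9 was left out because its summit lay on a tRNA gene.

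U6-type genes led the U snRNAs, with 4 of 24 on the optimal list and a share of 13.9% ± 2.41 among the 1000 highest. W05B2.8, in an intron of the dynein gene dhc-4, had a pooled signal of 508 and ranks of 44 and 129 in replicates 1 and 4, but had no match in replicate 3. The higher summit of F54D8.7 (signal 233) likewise lacked a match in replicate 3 and took ranks 176 and 205 in the other replicates, and its second summit (51.2) ranked 612 in replicate 3. The downstream summit of C28A5.7 (signal 198) was matched in replicates 3 and 4 alone, at ranks 596 and 224, and its upstream summit (173) in all 3, at 362, 4671 and 341. The higher summit of R07E5.16 (158) was matched in replicates 3 and 4 alone, at 695 and 454. No single U6-type summit was among the 1000 highest of all 3 replicates, but the genes F54D8.7 and C28A5.7 were, through different summits. Of U1-type genes 1 of 13 was on the optimal list, sup-6, with a signal of 239 and ranks of 188, 159 and 295 in replicates 1, 3 and 4. sup-39 reached rank 803 in replicate 1 with a peak 53 bp upstream of the gene, but 3740 in replicate 3 and 24131 in replicate 4, where its other summit ranked 1196. None of 19 U2-type, 5 U4-type or 12 U5-type genes had a peak among the 1000 highest of any replicate. By counting error, that allows shares of up to 15.8%, 60% and 25% if these repeated genes are taken as independent. U1-type genes without any counted peak were C27H5.11, T27E4.10, F40G12.13, F40G12.14 and F08H9.10. The U2-type genes without one were Y47H9A.2, F15H9.5, F15H9.6, F56H6.16, F56H6.14, F56H6.15, C47F8.9, T14B4.10, Y54G9A.8, F08G2.9, W07G1.9, C05G6.4 and Y57G11C.35. Of U4-type genes F10D2.13, K03B8.10, T11F9.15 and T11F9.16 had none, and of U5-type genes C53B4.9, C53D6.16, C53D6.12, ZK897.2, ZK897.3, ZK897.4 and F07C6.5. The U6-type genes without a peak were B0205.15, F35C11.9, F36A4.23, T08B6.62, T20D3.12, T20D3.13, K09B11.11, K09B11.12, K09B11.13, K09B11.14, K09B11.15 and K09B11.16. Only 1 of the 73 U snRNA genes consisted of unique 36-base stretches.

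snRNA summits did not share the upstream position. The median optimal summit was 103 bp downstream of the 5′ end (n = 11), and 4 of 11 lay in the 120 bp upstream. Of the 11, 10 had another pooled summit 190 to 210 bp away, against 21 of the 58 optimal snoRNA peaks (36.2%) and 10.4% of the other nuclear pooled peaks. The share was 40.4% at the 193 optimal tRNA peaks and 38.3% at the 308 other optimal peaks away from tRNA genes, so the snoRNA share was near that of other optimal peaks. At sup-6, for example, summits lay 13 bp upstream and 189 bp downstream of the 5′ end, and at C28A5.7 19 bp upstream and 183 bp downstream. The 11 snRNA peaks were nearest to 8 genes, so 2 summits of 1 gene could each count the other. With such spacing 1 site may count as 2 peaks, and the origin of the spacing was not tested.

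Shares of snoRNA genes on the optimal list were compared between chromosomes, with no test. On the optimal list were 16 of 71 snoRNA genes on chromosome II (22.5%), 13 of 55 on V (23.6%), 13 of 74 on I (17.6%), 8 of 54 on III (14.8%) and 8 of 59 on IV (13.6%). None of the 33 on X was, which allows up to 9.09% by counting error if genes are taken as independent. Shares of other genes or peaks by chromosome are not given here, so the lack on X is not shown to be particular to snoRNA genes. Of those 33 genes, 4 held a box pair. The best placed on X was C53B7.8, 52 bp upstream, with a signal of 120, no match in replicate 1 and ranks of 770 in replicate 3 and 591 in replicate 4.

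Genes for the proteins of these RNAs were read from a list of 35 symbols, 33 of which were annotated. An optimal summit lay in the promoter window, 1000 bp upstream to 200 bp downstream of the 5′ end, at 3 of the 33, against 1.87% of 19973 coding genes. They were snr-1, a core Sm protein of spliceosomal snRNPs, with a signal of 383 and ranks of 170, 118 and 73 in replicates 1, 3 and 4, fib-1, and ints-4. fib-1, which encodes the box C/D methylase fibrillarin, had a signal of 159 with ranks of 339 and 560 in replicates 1 and 4, and no match in replicate 3. ints-4, an Integrator subunit, had 143, with 3820 in replicate 3 and 326 in replicate 4. Peaks among the 1000 highest of some replicate were also at dkc-1 (dyskerin of box H/ACA particles), ints-3 and ints-8. The SNAPc genes snpc-1.1, snpc-3.4 and snpc-4 had pooled signals of 80.1, 77.6 and 37.9, and none was optimal.

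At the edge of the 500 bp limit, the last peaks inside lay 489 bp from Y49E10.36, 497 bp from C18D1.21 and 500 bp from T28B8.11, with pooled signals of 46.8, 41.9 and 45.9. The first outside lay 503 bp from W07G1.8, 509 bp from sls-2.9 and 510 bp from K10D3.10, with signals of 30.7, 29.3 and 31.6. None of the 6 was on the optimal list.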

How the data were processed

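The files were peak lists of chromatin immunoprecipitation sequencing, in ce11 coordinates per the labels. Each replicate list came from 1 replicate, the pooled list from all 3 together, and the optimal list by irreproducible discovery rate from the pooled list with those of replicates 3 and 4, per the deposited file listing. Aligner, caller and read placement: not given in the sources used here. Peak signal is the authors' deposited value, comparable only within a list. Deposited start, end and summit offset were converted to positions counted from 1.

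Genes were those of Ensembl release 115 on WBcel235. Free-standing genes overlap no coding gene. Intron-hosted genes lie in a coding intron on the same strand. Class shares were compared within replicates by exact sign-flip permutation, two-sided. Peaks and genes are not replicates and were described only. Alternatives varied distances, list depth, matching, classes and replicates. Named genes were the 20 highest peaks, the 5 highest intron-hosted genes, the 5 widest rank spreads, spliced leader and U genes with high peaks or none, and both sides of the limit, with further examples chosen after their values were seen. Members, lists and box letters were chosen with earlier results of these data known. Distance and matching code recovered peaks planted in simulated data, and a separate copy of the sign-flip test was checked on made-up differences. Tools were Python 3.11.15, numpy 2.4.6, pandas 2.3.3, scipy 1.17.1, edlib 1.3.9.post1 and matplotlib 3.10.9.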

Additional observations from a re-analysis of the deposited data

How the results depend on the processing

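No paired analysis was possible because the series holds 1 group, so no samples pair across groups, and class shares were compared within each replicate. Of 76 recalculations 4 reversed a direction, and sizes moved in others. The free-standing minus intron-hosted difference turned to 0.445 points with a deeper cut of each replicate list and to 0.459 with genes of unique 36-base stretches, and ran from -2.24 to 1.27 without 1 replicate each. It was -4.77 with a limit of 1000 bp, -3.95 without coding 5′ ends within 1000 bp and -0.00502 with antisense genes counted as free-standing. The spliced leader minus U snRNA difference turned to -0.32 with only summits in the 120 bp upstream, was 3.87 with summits matched within 50 bp, and ran from 8.84 to 9.82 without 1 replicate each. The median pooled signal was 60.4 with a limit of 200 bp, 45.2 with 1000 bp and 388 in the upper part of the optimal list, which removes weak peaks by construction. The median rank of intron-hosted peaks was 3731.0 with 200 bp. The difference between snoRNA genes with and without a box pair was 51.5 points, 56.1 with unique genes and 69.4 with at most 1 mismatch in each box. The cause of these shifts was not tested. The snoRNA minus snRNA difference was 13.2 with unique genes and ran from 9.0 to 9.83, the pair difference from 50.8 to 52.9 and the count of peaks high in every replicate from 51 to 60 without 1 replicate each. Box settings and the upstream restriction were added after seeing the data. With 3 replicates no comparison could pass 0.05, and without read counts no depth limit can be given.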
